A study of Mus musculus with 6 samples.

Results

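The 35 genes described here are regulators and markers of the mammalian cell cycle, out of 19679 gene symbols in the RNA-sequencing table. They were listed by name and grouped by the phase in which they act: 8 cyclins and cyclin-dependent kinases (CDKs) of G1, 4 brakes on G1, 11 genes of S phase and 12 of G2 and mitosis. The libraries came from osteoblasts, the bone-forming cells, of mice at postnatal day 9 carrying the transgene Col1a1*2,3-GFP, in which a fragment of the type I collagen promoter drives green fluorescent protein. Cells were released by collagenase from the mandible, the lower jaw, or from the tibia, the shin bone, and the fluorescent ones were sorted. Each of 3 dissections pooled about 50 mice and gave 1 library per site, so the series holds 3 mandible and 3 tibia libraries, all of the same genotype and age. The study asks how osteoblasts of the jaw differ from those of a limb bone. Because the samples were bulk RNA, fewer cycling cells and less cell cycle RNA per cell cannot be told apart.

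A cell leaves G1 when D-type cyclins with CDK4 or CDK6, and then E-type cyclins with CDK2, phosphorylate the retinoblastoma protein and free E2F factors. E2F factors switch on genes for replication and nucleotide synthesis, and the B-type cyclins with CDK1 later drive mitosis. CDK inhibitors such as p21 and p27 hold the cycle back. In bone, proliferation belongs mainly to osteoprogenitors, and osteoblasts leave the cycle as they mature and make matrix.

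Values are RPKM, mapped reads scaled by transcript length and library size, summed over the transcripts of a gene. Low values step by whole reads, which put the library totals between 49.2 and 58.2 M, so 1 RPKM on 1 kb of transcript stands for about 49.2 to 58.2 reads. Both libraries of dissection 3 stood apart from the other 4, with a sum of all RPKM of 586126 and 547950 against 374077 to 410846. The experiment names in the labels also have another form for dissection 3 than for 1 and 2. Summed osteoblast markers (10 genes, Col1a1 and Bglap among them) lay between 71413 and 91042 RPKM in all 6 libraries, with no marker at 0. The sum hides moves in both directions. In the test between dissections given below 7 of the 10 passed (70%, against 34.4% of all genes), 3 higher and 4 lower in dissection 3. Summed leukocyte markers (17 genes) lay between 909 and 2017 RPKM in dissections 1 and 2 and at 9202 and 9795 in dissection 3, again with none at 0. Differences were tested with limma on log2(RPKM + 0.5) over 12752 genes with a mean of at least 0.5 RPKM, and all 35 cell cycle genes were among them. On this scale a fold change comes out too small for scarce transcripts.

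Cdkn1a, which encodes the CDK inhibitor p21, had the highest mean over the 6 libraries at 159 RPKM, followed by Cdk4, the catalytic partner of D-type cyclins, at 134. Next came Pcna, the sliding clamp of DNA polymerase, at 61.3, Rrm2, the regulated subunit of ribonucleotide reductase, at 43.5, and the G1 cyclin Ccnd2 at 34.6. The lowest means belonged to Bub1, a kinase of the spindle checkpoint, at 1.52, to the retinoblastoma gene Rb1 at 1.57 and to the S and G2 cyclin Ccna2 at 1.95. As a geometric mean of RPKM + 0.5, the G2 and mitosis genes stood at 5.23, 6.16 and 9.37 in mandible libraries 1, 2 and 3 and at 6.13, 7.23 and 11.5 in tibia libraries 1, 2 and 3. The S phase genes stood at 14.6, 15.1 and 21.3 in the mandible and at 15.2, 16.7 and 22.8 in the tibia. In both groups the library of dissection 3 was the highest at its site, and the tibia library was above the mandible library of the same dissection. The G1 cyclins and CDKs lay between 10.1 and 11.7 in all 6 libraries. Over all 12752 genes the same mean lay between 5.80 and 6.80.

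**Figure D1:**
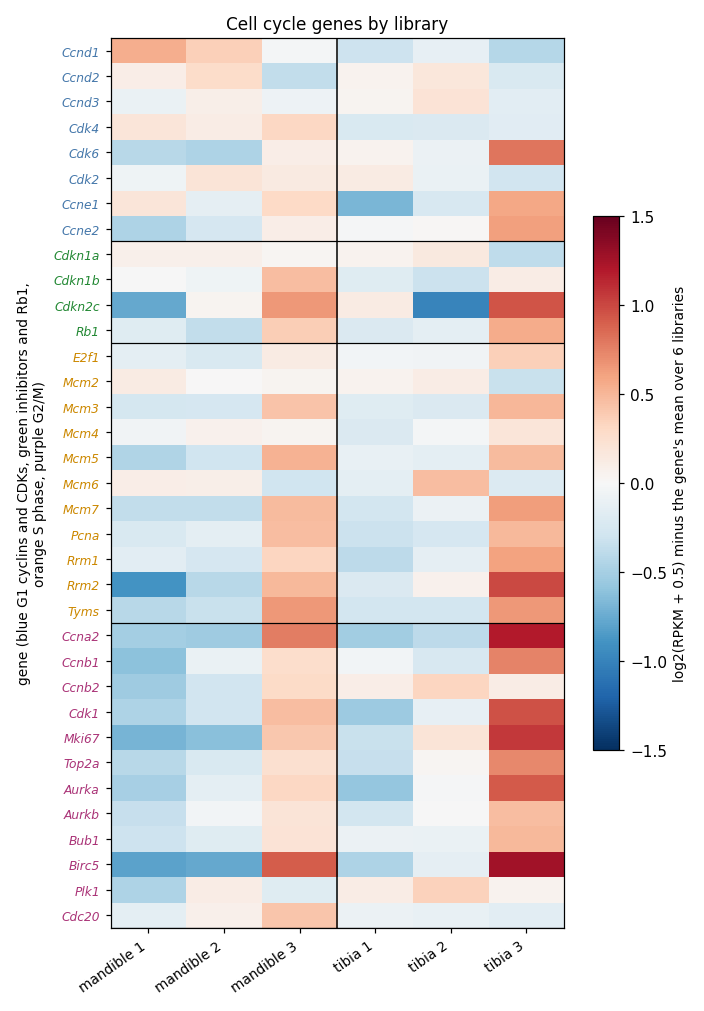
Level of each of the 35 genes in each library, as log2(RPKM + 0.5) minus the gene's mean over the 6 libraries, with genes in rows by phase and libraries in columns. Most S phase and G2/M genes are highest in mandible 3 and tibia 3, while Ccnd1 and Cdk4 are higher in the mandible columns.

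Between the sites, none of the 35 genes passed the limma test at an adjusted p of 0.05, and 1 of them, Ccnd1, had an unadjusted p under 0.05. Among all genes 0.972% passed, 0.87% as higher and 0.102% as lower in the jaw, while 1147 reached an unadjusted p under 0.05. The spread between dissections entered this test. In a second limma fit with the dissection as a block, which compares the sites within each dissection, 1 of the 35 passed, Rrm2, lower in the mandible. That fit called 6.49% of all genes, 4.44% higher and 2.05% lower, so 1 call in 35 (2.86%) was near the background. The median log2 difference, mandible minus tibia, was -0.13 over the 35 genes and 0.12 over all genes. With quantile normalization these medians were -0.24 and -0.01, so the 35 genes lay below the bulk of the genes under both scalings. The median of the 35 was 0.07 without tibia library 3 and -0.34 without mandible library 3, the libraries in which most of these genes were highest. Over all genes the same fits, which had no block, gave medians of 0.16 and 0.08. The medians by phase were 0.09 for the G1 cyclins and CDKs, 0.04 for the 4 brakes, -0.07 for S phase and -0.24 for G2 and mitosis.

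Ccnd1, which encodes cyclin D1, was at 11.1, 9.69 and 7.29 RPKM in mandible libraries 1, 2 and 3 and at 5.93, 6.80 and 5.41 in the tibia libraries. Cdk4 was at 149.9, 143 and 165 RPKM in the mandible and at 113, 113 and 118 in the tibia. For both genes each mandible library was above each tibia library. Groups did not overlap in this direction for 2 of 35 cell cycle genes (5.71%) and for 12.6% of all genes, so the share was no larger than the background. In the other direction no cell cycle gene was free of overlap, against 3.05% of all genes. The log2 difference of Ccnd1 was 0.58 (SE 0.21, adjusted p = 0.475; with the block adjusted p = 0.0626). When both libraries of dissection 3 were left out, Ccnd1 was at 0.67 and passed the limma test (adjusted p = 0.0478). That fit called 714 of all genes, 550 of them higher. With the block and quantile normalization Ccnd1 was at 0.47 (adjusted p = 0.115). For Cdk4 the difference was 0.41 (SE 0.20, adjusted p = 0.65; adjusted p = 0.0576 with the block), and 0.25 with quantile normalization. Reads from the opposite strand may enter both genes, since in GENCODE 23.4% of the exon bases of Ccnd1 overlap LTO1 and 19.7% of those of Cdk4 overlap Tspan31. The sources used here do not give the strand setting. In build GRCm38 Ccnd1 lies at chromosome 7, 144929931 to 144939831, and Cdk4 at chromosome 10, 127063535 to 127067288.

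Cdk6, the other kinase of D-type cyclins, was at 2.80, 2.71 and 4.22 RPKM in the mandible and at 4.08, 3.64 and 7.17 in the tibia. Each mandible library was below its tibia partner, at 0.687, 0.743 and 0.59 times the tibia value, though the groups overlapped. Its log2 difference was -0.51 (SE 0.29, adjusted p = 0.736; with the block adjusted p = 0.0769, and adjusted p = 0.0436 with quantile normalization as well). The last of these fits called 784 of all genes, 424 of them lower. Ccnd2 (cyclin D2) ranged from 26.3 to 41.5 RPKM and Ccnd3 (cyclin D3) from 14.8 to 19.2, with log2 differences of 0.00 and -0.06. Cdk2, the kinase of E-type cyclins, ranged from 6.82 to 9.66 RPKM. The E-type cyclins were scarce, with Ccne1 between 1.28 and 3.79 RPKM and Ccne2 between 1.74 and 4.26. Ccne2 was below its tibia partner in all 3 mandible libraries (-0.41, SE 0.25, adjusted p = 0.77), while Ccne1 was higher in dissections 1 and 2 and lower in 3. Of the exon bases of Ccne2, 17.4% overlap Ints8 on the opposite strand.

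**Figure D2:**
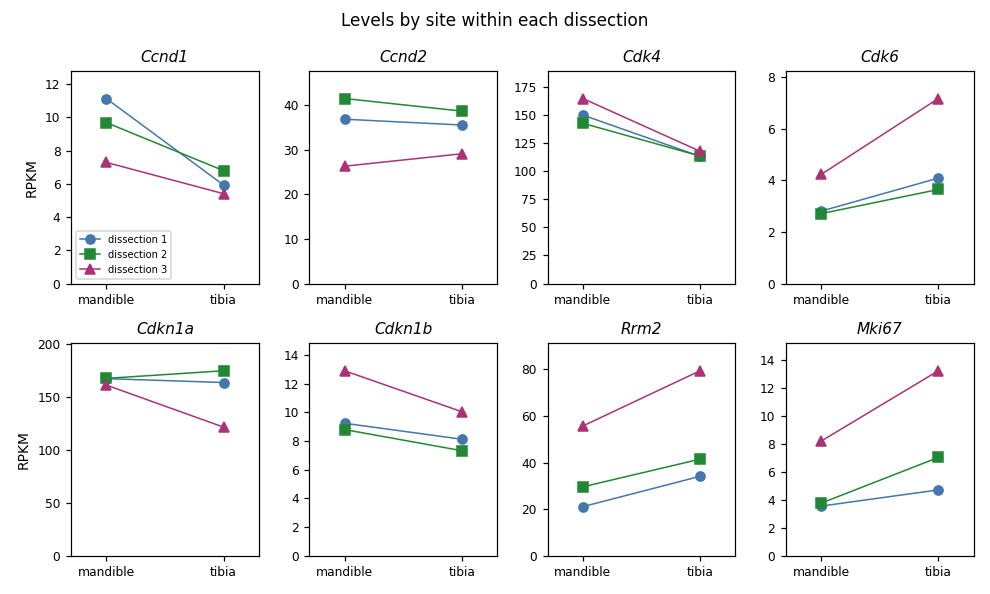
RPKM of 8 cell cycle genes at both sites, with each line joining the mandible and tibia library of the same dissection. Ccnd1 and Cdk4 slope down and Cdk6, Rrm2 and Mki67 slope up from mandible to tibia in all 3 dissections, and dissection 3 is the highest line for Rrm2 and Mki67.

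Among the brakes, Cdkn1a was at 167, 167 and 161 RPKM in the mandible and at 163, 174 and 121 in the tibia. The sites overlapped, and tibia library 3 was the lowest (log2 difference 0.13, SE 0.23, adjusted p = 0.965; -0.05 with quantile normalization). Cdkn1b, encoding the inhibitor p27, was at 9.23, 8.79 and 12.9 RPKM in the mandible and 8.12, 7.32 and 10.04 in the tibia. It was higher in the mandible in each dissection without passing (0.26, SE 0.22, adjusted p = 0.888). Cdkn2c, an inhibitor of CDK4 and CDK6, was the most variable of the brakes, from 1.65 to 7.77 RPKM, with mandible to tibia ratios of 0.483, 2.36 and 0.804 in dissections 1, 2 and 3. Rb1 lay between 1.05 and 2.45 RPKM at both sites, and 14.9% of its exon bases overlap genes on the opposite strand.

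Rrm2 had the clearest site difference within dissections among the S phase genes. It was at 21.1, 29.6 and 55.7 RPKM in mandible libraries 1, 2 and 3 and at 34.1, 41.5 and 79.4 in the tibia libraries. The ratio of mandible to tibia was 0.618, 0.714 and 0.701, although the ranges of the sites overlapped. The log2 difference was -0.56 (SE 0.45, adjusted p = 0.873 without the block; SE 0.10, adjusted p = 0.0311 with it). With the block it was -0.58 without both libraries of dissection 3 (adjusted p = 0.0310) and -0.71 with quantile normalization (adjusted p = 0.0137). These fits called 348 and 424 of all genes as lower. The gene lies at chromosome 12, 24708254 to 24714146 in GRCm38. Of the 11 S phase genes 5 were lower in the mandible in each dissection (45.5%, against 13.4% of all genes) and none was higher in each. Besides Rrm2 these were E2f1, the activating factor at 2.27 to 3.67 RPKM, Mcm3, Mcm7 and the thymidylate synthase gene Tyms, and their differences of -0.17, -0.06, -0.18 and -0.07 did not pass.

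The 12 genes of G2 and mitosis stood on the lower side in the mandible for 11 genes, with Cdc20, an activator of the anaphase-promoting complex, as the exception at 0.24. Of the 12, 6 were lower in each dissection (50%, against 13.4% of all genes). They were Mki67, Top2a, Aurkb, Bub1, Birc5 and Plk1. Mki67, which encodes the proliferation antigen Ki-67, was at 3.55, 3.76 and 8.19 RPKM in the mandible and at 4.71, 7.03 and 13.2 in the tibia. The difference of -0.61 (SE 0.44, adjusted p = 0.832) had an adjusted p of 0.0548 with the block, and 0.0395 with the block and quantile normalization. The latter fit called 784 of all genes, 424 of them lower. Birc5, encoding survivin, a subunit of the chromosomal passenger complex, was at 13.9, 14.3 and 46.8 RPKM in the mandible against 17.8, 22.6 and 60.0 in the tibia. Its difference was -0.45 (SE 0.62, adjusted p = 0.952; with the block adjusted p = 0.0693). Birc5 passed with the block and quantile normalization (-0.60, adjusted p = 0.0396). It also passed with the block and the length and GC correction (-0.58, adjusted p = 0.0409), where 449 of all genes were called lower. In the fit without the block the estimate moved to 0.07 when tibia library 3 was left out. The mitotic kinase gene Plk1 was at 4.26, 6.58 and 5.29 against 6.597, 7.83 and 6.30 RPKM (-0.35, SE 0.21, adjusted p = 0.756). None of the 12 passed with the block alone, where 2.05% of all genes were called lower. Over the 35 genes 13 were lower in each dissection (37.1%) and 3 higher (8.57%), against 13.4% and 36.8% of all genes.

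**Figure D3:**
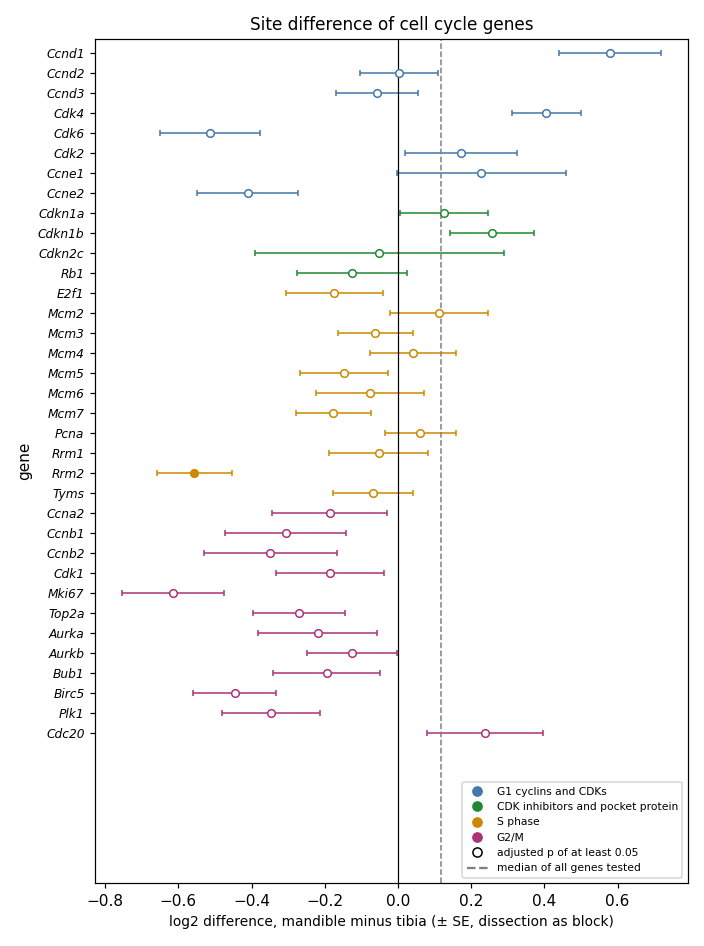
Log2 difference, mandible minus tibia, of each gene from the limma fit with the dissection as a block; bars are the standard error (n = 3 per site), filled points have an adjusted p under 0.05 and the dashed line is the median of all genes tested (0.12). Rrm2 is the filled point, and 11 of the 12 G2/M genes lie left of 0.

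Markers of blood cells differed in the same direction as these genes. Each of the 13 tested erythroid markers had a site difference below 0, as did 4101 of all 12752 genes. With the block 11 of the 13 passed as lower (84.6%, against 2.05% of all genes). Their summed level reached 5610, 13851 and 43054 RPKM in tibia libraries 1, 2 and 3, against 2210, 7780 and 20676 in the mandible, with none at 0. Of 16 tested leukocyte markers 15 were on the lower side and 6 passed as lower with the block (37.5%). Endothelial markers summed to 38.6 to 47.6 RPKM in the mandible and 69.7 to 121 in the tibia, and 5 of 6 passed as lower with the block (83.3%). The part of blood and endothelial cells in the site differences of Rrm2 and the G2/M genes was not tested. On the other side, cartilage markers summed to 119 to 254 RPKM in the mandible and 25.7 to 46.0 in the tibia, and ameloblast and odontoblast markers to 565 to 2192 and 6.25 to 7.09. Osteoclast markers lay at 700 to 858 and 614 to 656 RPKM, epithelial markers at 6.82 to 16.4 and 0.414 to 1.74, and Schwann cell markers at 40.8 to 75.9 and 2.73 to 11.5. Osteocyte markers lay at 999.9 to 1351 in the mandible and 754 to 1053 in the tibia. Listed at 0 in at least 1 library were Calcr of the osteoclast list, Matn1 of the cartilage list, Mmp20 of the ameloblast list and the keratins Krt5, Krt14 and Krt8.

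More of the genes passed a test between dissections than between sites, but these counts are not directly comparable. The spread between dissections entered the error of the site test without the block and not that of the dissection test. The p-values by dissection do not measure the spread between pools. A limma F test of the dissection, in a model that also held the site, passed for 18 of the 35 genes (51.4%), and for 34.4% of all genes. That test was chosen with earlier results of these data known, in which libraries differed by dissection. For 17 of the 18 the level was higher in dissection 3 than in the mean of 1 and 2 (48.6% of the 35, against 21.5% of all genes), and for 1, Ccnd2, it was lower. The calls covered 8 of 12 G2/M genes, 7 of 11 S phase genes, 2 of 8 G1 cyclins and CDKs and 1 of the 4 brakes. The median log2 difference of dissection 3 was 0.66 over the 35 genes and 0.10 over all genes (0.52 and 0.02 with quantile normalization). In 24 of the 35 genes (68.6%, against 40.3% of all genes) dissection 3 was the highest library at both sites, and in 4 it was the lowest at both, against 27.3% of all genes.

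Birc5 stood at 3.31 times the mean of dissections 1 and 2 in the mandible and 2.97 times in the tibia and rose (log2 difference 1.63, SE 0.12, adjusted p = 0.00111). Ccna2, cyclin A2, was at 1.01, 0.988 and 3.15 RPKM in mandible libraries 1, 2 and 3 and at 0.999, 1.14 and 4.40 in the tibia libraries. Its libraries of dissections 1 and 2 lay close together at both sites and those of dissection 3 lay above them (1.47, SE 0.17, adjusted p = 0.00346). In GENCODE 12.5% of the exon bases of Ccna2 overlap Exosc9 on the opposite strand. Cdk1, the mitotic kinase, was at 5.24, 6.00 and 10.4 RPKM in the mandible and 4.90, 6.75 and 14.8 in the tibia (1.06, SE 0.16, adjusted p = 0.00721). Mki67 rose by 1.10 (SE 0.15, adjusted p = 0.00538). Aurka, the spindle pole kinase, rose by 0.92 (adjusted p = 0.0139) and Ccnb1, cyclin B1, by 0.75 (adjusted p = 0.0382). Top2a, DNA topoisomerase II alpha, rose by 0.72 (adjusted p = 0.0148) and Aurkb, the kinase of the passenger complex, by 0.49 (adjusted p = 0.0417). With median-of-ratios scaling neither Ccnb1 (0.62, adjusted p = 0.0590) nor Aurkb (0.36, adjusted p = 0.0779) passed. Without the filter Aurka, Ccnb1, Top2a and Aurkb did not pass.

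The other 4 G2/M genes did not pass. Ccnb2, cyclin B2, was at 11.2, 13.4 and 20.2 RPKM in the mandible and at 17.6, 20.6 and 17.7 in the tibia, so that dissection 3 was highest in the mandible and in between in the tibia. Its difference was 0.30 (SE 0.19, adjusted p = 0.357) and ran from -0.10 to 0.70 as single libraries were left out, passing the F test without tibia library 3 (adjusted p = 0.0233). Between sites Ccnb2 was lower in the mandible with the block when both libraries of dissection 3 were left out (-0.62, adjusted p = 0.0263). That fit called 1162 of all genes, 348 of them lower. Plk1 stood at -0.09 (adjusted p = 0.194), Bub1 at 0.51 (adjusted p = 0.0912) and Cdc20 at 0.19 (adjusted p = 0.596). Cdc20 was at 4.37, 5.19 and 6.68 RPKM in the mandible and at 4.56, 4.49 and 4.32 in the tibia.

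Of the S phase genes, Rrm2 rose in dissection 3 by 1.10 (SE 0.11, adjusted p = 0.00199), Tyms by 0.98 (SE 0.12, adjusted p = 0.00394), Pcna by 0.71 (SE 0.10, adjusted p = 0.00741) and Rrm1, the large subunit of ribonucleotide reductase, by 0.70 (SE 0.14, adjusted p = 0.0257). With quantile normalization neither Pcna (0.39, adjusted p = 0.0631) nor Rrm1 (0.58, adjusted p = 0.0616) passed. Rrm1 also did not pass with median-of-ratios scaling (adjusted p = 0.0540) or without the filter (adjusted p = 0.0911). Tyms was at 9.06, 9.57 and 19.5 RPKM in the mandible and 10.02, 10.01 and 19.6 in the tibia. The genes of the MCM helicase, the hexamer that unwinds DNA at forks, were called in part. Mcm7 was at 24.4, 24.4 and 44.0 RPKM in the mandible and at 26.1, 29.6 and 49.2 in the tibia (0.83, SE 0.11, adjusted p = 0.00535), and Mcm3 and Mcm5 rose by 0.69 and 0.75. Mcm2, Mcm4 and Mcm6 stood at -0.22, 0.17 and -0.38 and did not pass. Whether the subunits differ from each other was not tested. E2f1 stood at 0.35 (adjusted p = 0.195). Other genes overlap 12.6% of the exon bases of Mcm7, with Mir25 and Mir93 on the same strand and Cops6 and Ap4m1 on the opposite one.

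In G1 the cyclin D2 gene Ccnd2 fell in dissection 3 (-0.45, SE 0.11, adjusted p = 0.0435), from 36.8 and 41.5 to 26.3 RPKM in the mandible and from 35.5 and 38.6 to 29.1 in the tibia. That call was lost without each library other than tibia library 3, with adjusted p-values between 0.071 and 0.209. Cdk6 rose by 0.68 (SE 0.14, adjusted p = 0.0292) and Rb1 by 0.69 (SE 0.16, adjusted p = 0.0386). The call of Cdk6 was lost without each library other than mandible library 3. That of Rb1 was lost without each single library, and with quantile normalization (0.65, adjusted p = 0.0524). Ccnd1 (-0.35), Ccnd3 (-0.18), Cdk2 (-0.11), Cdk4 (0.11), Cdkn1a (-0.26), Cdkn1b (0.43), Ccne1 (0.66), Ccne2 (0.54) and Cdkn2c (1.20) did not pass. Cdkn1a, the p21 gene, passed with quantile normalization, where it was lower in dissection 3. The sign of Cdk4 changed with the scaling, to -0.36 with quantile normalization.

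**Figure D4:**
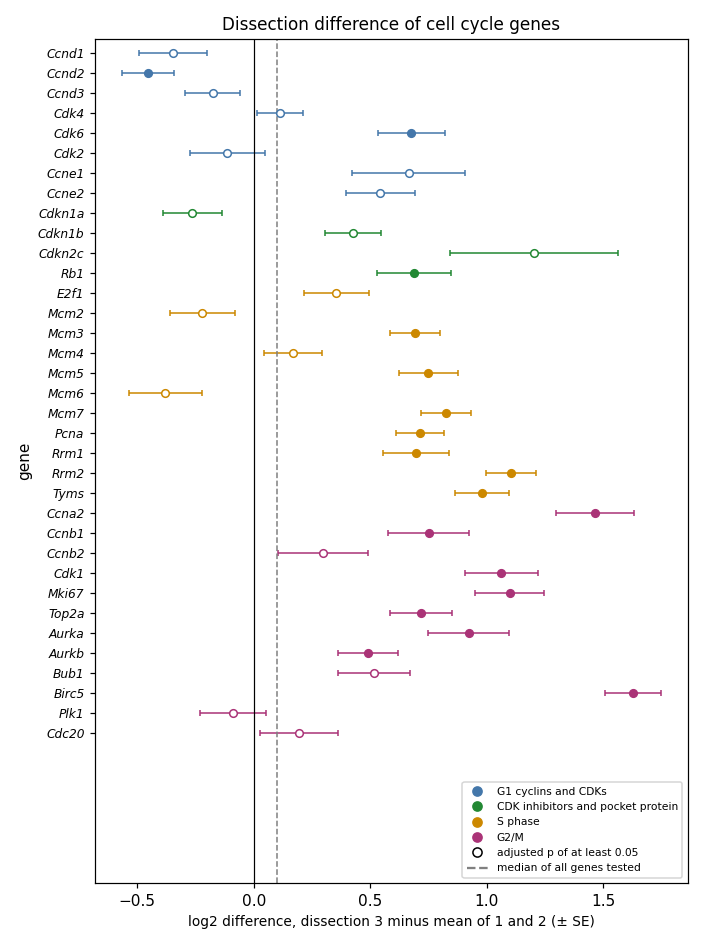
Log2 difference of each gene between dissection 3 and the mean of dissections 1 and 2, both sites in 1 limma fit; bars are the standard error, filled points passed the F test of the dissection at an adjusted p under 0.05 and the dashed line is the median of all genes tested (0.10). The 8 filled G2/M points and 7 filled S phase points lie right of the dashed line and Ccnd2 lies left of 0.

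Over the alternatives run with all 3 dissections, Birc5, Ccna2, Cdk1, Mcm7, Mki67, Rrm2 and Tyms kept the dissection call in every one, and the other 11 called genes lost it in at least 1. Without both libraries of dissection 3, where dissection 1 was set against 2, none of the 35 genes and 8 of all genes passed. Blood markers moved with dissection 3 as well. Summed leukocyte markers were 8.59 times as high as in the mean of dissections 1 and 2 in the mandible and 5.69 times in the tibia. Of 16 tested markers 15 passed the F test as higher (93.8%, against 21.5% of all genes). Summed erythroid markers were 4.14 and 4.42 times as high. All 13 were higher in dissection 3, and 11 of them passed the F test (84.6%, against 21.5% of all genes called higher). Between dissections 1 and 2 the erythroid sum went from 2210 to 7780 RPKM in the mandible and from 5610 to 13851 in the tibia. The leukocyte sum went from 909 to 1232 RPKM in the mandible and from 1423 to 2017 in the tibia. The G2/M level, a geometric mean and not a sum, went from 5.23 to 6.16 and from 6.13 to 7.23. The part of blood cells in the levels of the cycle genes was not tested.

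Transcript length and base composition moved with dissection 3 too. Over all genes with a matched transcript, the median difference of dissection 3 was 0.52 in the 3157 genes with the shortest transcripts, at most 1752 bases, and -0.09 in the 3156 with the longest. It was 0.23 in the 3157 genes lowest in GC content and -0.14 in the 3156 highest. Birc5, at 947 bases, is among the short ones, whereas Mki67 with 10061 bases and Cdk6 with 11525 bases are among the longest. After each library's trend with length and GC was removed, an alternative chosen after seeing the data, 14 of the 35 genes passed, 13 of the 18 among them, and the median difference was 0.47 over the 35 genes and 0.03 over all genes. The difference of Birc5 went from 1.63 to 0.96 (adjusted p = 0.0095), and that of Mki67 from 1.10 to 1.22. Calls were lost for Pcna, which went from 0.71 to 0.17 (adjusted p = 0.428), Ccnb1 from 0.75 to 0.51, Aurka from 0.92 to 0.64, Aurkb from 0.49 to 0.32 and Rb1 from 0.69 to 0.58 (adjusted p = 0.0701). E2f1 went from 0.35 to 0.73 and passed (adjusted p = 0.0289).

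**Figure D5:**
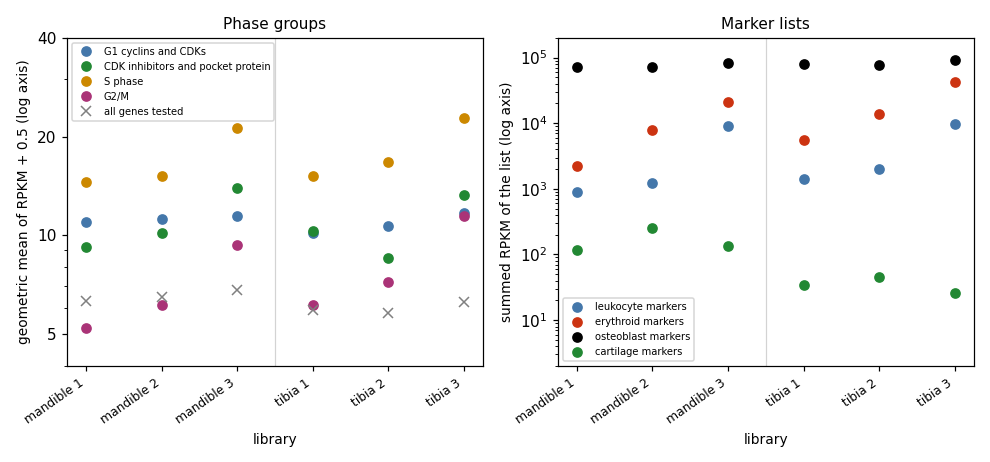
Left, geometric mean of RPKM + 0.5 over the genes of each phase group and over all genes tested, by library (log axis). Right, summed RPKM of leukocyte, erythroid, osteoblast and cartilage marker lists, by library (log axis). The S phase and G2/M points and the leukocyte points are highest in dissection 3 at each site, while the osteoblast sum lies between 71413 and 91042.

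Promoters of S phase and mitotic genes are known for different short elements. E2F sites are typical of the former, and a CCAAT box, bound by the factor NF-Y, with a cell cycle homology region (CHR), bound through the DREAM and MuvB complexes, of the latter. The RefSeq promoter table (GRCm38.p6, 250 bases before to 50 after the start) held 28 of the 35 genes. Each window was searched on both strands for the CCAAT box. The CHR was searched as TTTGAA and also with the spelling TTCGAA. The E2F core was searched as TTCCCGC, then in the form TTCGCGC, then in the form TTGCCGC and last in the form TTGGCGC. No motif contains another. CCAAT and a CHR were found together in 8 of 10 G2/M genes (80%), 2 of 10 S phase genes (20%) and none of the 8 other genes, against 8.61% of all 27025 symbols in the table and 6.80% of the 9688 tested genes it holds. An E2F core was in 6 of 10 S phase genes (60%) and 3 of 10 G2/M genes (30%), against 10.9% of all symbols and 19.1% of the tested genes. A match is a description of letters and does not show that a factor binds there. Of the G2/M genes with both letters, Cdk1, Mki67, Top2a and Aurka passed the F test of the dissection, and Ccnb2, Bub1, Plk1 and Cdc20 did not. The 250 bases before the start of 6 genes are shown to set these layouts side by side. Cdk1 and Mcm3 rose in dissection 3, Rrm2 also fell in the mandible with the block, Ccnb2 has both letters without a call, Birc5 rose and has no match, and Cdk4 is a G1 gene without a match. Capitals mark the matches.
Mcm3: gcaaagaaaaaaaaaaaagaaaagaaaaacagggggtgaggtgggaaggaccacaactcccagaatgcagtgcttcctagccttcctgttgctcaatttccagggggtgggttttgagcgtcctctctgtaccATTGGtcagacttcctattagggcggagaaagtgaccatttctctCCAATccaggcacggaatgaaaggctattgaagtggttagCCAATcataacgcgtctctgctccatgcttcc
Rrm2: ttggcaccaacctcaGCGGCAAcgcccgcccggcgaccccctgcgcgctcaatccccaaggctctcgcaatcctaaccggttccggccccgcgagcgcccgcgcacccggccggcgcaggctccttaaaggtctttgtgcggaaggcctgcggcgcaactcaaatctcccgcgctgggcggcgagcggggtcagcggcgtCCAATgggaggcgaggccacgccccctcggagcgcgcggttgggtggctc
Cdk1: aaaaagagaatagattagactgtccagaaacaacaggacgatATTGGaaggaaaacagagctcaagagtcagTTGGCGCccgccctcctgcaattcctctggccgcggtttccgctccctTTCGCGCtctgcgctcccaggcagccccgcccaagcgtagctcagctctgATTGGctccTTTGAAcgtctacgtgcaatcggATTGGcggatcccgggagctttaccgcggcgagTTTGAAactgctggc
Ccnb2: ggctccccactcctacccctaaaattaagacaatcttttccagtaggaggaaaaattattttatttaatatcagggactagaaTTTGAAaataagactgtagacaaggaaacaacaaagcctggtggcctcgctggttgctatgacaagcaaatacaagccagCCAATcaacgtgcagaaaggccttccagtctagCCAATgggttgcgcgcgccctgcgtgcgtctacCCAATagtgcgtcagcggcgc
Birc5: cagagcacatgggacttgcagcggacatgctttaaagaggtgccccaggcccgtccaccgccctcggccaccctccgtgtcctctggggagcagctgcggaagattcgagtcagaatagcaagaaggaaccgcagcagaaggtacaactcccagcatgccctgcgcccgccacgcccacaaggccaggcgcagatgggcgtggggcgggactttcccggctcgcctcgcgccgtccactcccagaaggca
Cdk4: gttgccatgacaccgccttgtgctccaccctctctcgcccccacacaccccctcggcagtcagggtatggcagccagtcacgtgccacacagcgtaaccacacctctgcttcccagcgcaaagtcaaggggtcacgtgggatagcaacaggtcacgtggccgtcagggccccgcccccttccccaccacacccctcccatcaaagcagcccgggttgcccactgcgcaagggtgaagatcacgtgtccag

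The 6 windows lie on chromosome 1 from 20820313 to 20820562 (Mcm3, minus strand), chromosome 12 from 24708004 to 24708253 (Rrm2, plus strand), chromosome 10 from 69352913 to 69353162 (Cdk1, minus strand), chromosome 9 from 70421555 to 70421804 (Ccnb2, minus strand), chromosome 11 from 117848987 to 117849236 (Birc5, plus strand) and chromosome 10 from 127063285 to 127063534 (Cdk4, plus strand). In Cdk1 the CHR letters begin 71 and 15 bases before the start and CCAAT, in reverse, 208, 80 and 48 bases before it, with E2F cores at 178 and 130. In Ccnb2 CCAAT begins 87, 54 and 21 bases before the start and the CHR letters 167 before it. Mcm3 holds CCAAT at 117, 72 and 32 bases, the first of them in reverse, and its E2F core lies outside the bases shown. Rrm2 holds CCAAT at 50 bases and an E2F core, in reverse, at 235.

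Wider lists of cell cycle genes were read the same way. None of 21 other G1/S regulators, 31 other replication genes, 31 other mitosis genes and 13 targets of p53 passed the limma test between sites, with 3, 0, 2 and 0 at an unadjusted p under 0.05. The smallest p-values by site belonged to E2f2 (-1.06), E2f6 (0.42) and Cdkn1c (0.63) among the G1/S regulators, to Gins4 (0.53), Pole (-0.26) and Fen1 (-0.20) among the replication genes, to Incenp (-0.46), Ccnf (-0.45) and Tacc3 (-0.34) among the mitosis genes and to Pmaip1 (-0.64), Bax (0.39) and Btg2 (0.40) among the p53 targets. With the block 2 of 21 G1/S regulators and 1 of 31 mitosis genes (3.23%) passed and none of the other lists, where 6.49% of all genes did. The CDK inhibitor gene Cdkn1c, encoding p57, was at 16.3, 18.1 and 23.2 RPKM in the mandible against 9.86, 10.8 and 16.5 in the tibia and rose in the mandible (0.63, SE 0.11, adjusted p = 0.0287). The factor gene E2f2 was at 1.98, 3.15 and 3.80 against 3.95, 6.89 and 10.3 RPKM, with no overlap of the sites, and fell in the mandible (-1.06, SE 0.15, adjusted p = 0.0129). The gene of the spindle protein Nusap1 fell (-0.65, SE 0.13, adjusted p = 0.0420). The median difference was 0.13 over the G1/S regulators, -0.00 over the replication genes, -0.17 over the mitosis genes and 0.01 over the p53 targets, against 0.12 over all genes.

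By dissection, 15 of 31 replication genes passed (48.4%, against 34.4% of all genes), 14 of them higher in dissection 3 (45.2%, against 21.5%), and the list's median difference was 0.61 against 0.10 over all genes. Rfc4 (1.47) and Rfc3 (1.03), subunits of the clamp loader, rose, as did Gmnn (1.39), which encodes the licensing inhibitor geminin, and the single-strand binding subunits Rpa3 (1.33) and Rpa2 (0.73). The helicase cofactors Gins1 (1.23), Gins2 (0.89) and Cdc45 (1.12), the thymidine kinase Tk1 (1.05), the primase Prim1 (1.02), the origin factors Orc6 (0.96) and Cdc6 (0.93), the ligase Lig1 (0.76) and Uhrf1 (0.46) rose too. The polymerase gene Pold1 fell (-0.98). Of 31 mitosis genes 12 passed (38.7%), a share near the 34.4% of all genes, and 11 of them were higher (35.5%, against 21.5%), with a median of 0.49 over the list. They were Cks2 (1.70), a CDK-binding protein, Pttg1 (1.29), which encodes securin, Nusap1 (1.22), the checkpoint gene Mad2l1 (1.17), the spindle genes Tpx2 (0.98), Hmmr (0.90), Kif2c (0.84) and Prc1 (0.61), and the kinetochore genes Nuf2 (0.91), Ndc80 (0.85) and Cenpe (0.73). Espl1, which encodes separase, fell (-0.86).

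Among the G1/S regulators 10 of 21 passed by dissection (47.6%, against 34.4% of all genes), 8 of them higher (38.1%, against 21.5%). Cks1b (0.99), Cdkn2d (0.91), E2f4 (0.89), E2f8 (0.85), E2f2 (0.71), Fbxw7 (0.67), Tfdp2 (0.62) and Cdkn1c (0.54) rose. Myc, which drives cell growth and G1 progression, was at 145, 147 and 63.8 RPKM in mandible libraries 1, 2 and 3 and at 109, 134 and 35.7 in the tibia libraries, so that both libraries of dissection 3 were below the other 4 (-1.47, adjusted p = 0.00262). The CDK inhibitor gene Cdkn2b fell as well (-1.79). Cdkn2a, another inhibitor gene, was below the filter, with at most 0.146 RPKM. Of 13 p53 targets 4 passed (30.8%), a share below the 34.4% of all genes, and 1 of them was higher (7.69%, against 21.5%). Sesn2, a stress-induced gene, was at 8.59, 5.97 and 1.93 RPKM in the mandible and at 8.80, 7.44 and 1.49 in the tibia and fell (-1.88, adjusted p = 0.00146). Mdm2 (-0.85), which encodes the ubiquitin ligase of p53, and the apoptosis gene Bbc3 (-0.91) fell, while the growth arrest gene Gadd45a rose (1.47, adjusted p = 0.00138). The median over the p53 targets was -0.02.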

How the data were processed

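The files hold RPKM per RefSeq transcript, deposited by the authors for 6 libraries. Per the labels' protocols, 2 to 8 ng of RNA per preparation entered the SMART-Seq v4 low-input kit, so amplification preceded sequencing. Per the submitters' processing notes the tools were CASAVA 1.8.2, TopHat2 2.1.0 and Partek 6.6, with build mm10, whereas Partek 6.15.1207 made the RPKM per the file headers. A few abundant transcripts can lower all other RPKM of a library.

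Values of 30198 transcripts were summed over 19679 symbols, filtered at a mean of 0.5 RPKM and tested on log2(RPKM + 0.5) with limma 3.58.1 (R 4.3.3; lmFit, eBayes with trend, two-sided, Benjamini-Hochberg over 12752 genes, threshold 0.05). Every adjusted p comes from limma. The site model had no other term. The dissection F test held the site. The script was tested on simulated data. No count model was fitted, because reads of genes with several transcripts are estimated shares. Read totals came from steps of low values of single-transcript genes, of which 67.7% to 73.4% per library lay within 0.05 of a whole read at the chosen total.

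Same-numbered libraries came from 1 dissection per the labels' experiment names, and their deviations from the site means correlated at 0.59, 0.66 and 0.80 across genes, but mandible library 1 with tibia library 2 and the reverse also at 0.55 and 0.52. P-values by site measure the spread between 3 pools of mice, not between mice. The dissection F test sets the dissections against the spread of the site difference over them, and dissection 3 was 1 pool. Its p-values therefore do not measure the spread between pools. All 35 cell cycle genes are named or counted. Of the wider lists, genes called in either comparison and those with the 3 smallest p-values by site are named. The members, the lists and the dissection test were chosen with earlier results of these data known. Alternatives were the pseudocount, the filter, 2 scalings, the top transcript, left-out libraries, the block and a length and GC correction (GENCODE M21 transcripts). Figures used matplotlib 3.10.9 in Python 3.11.15.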

Additional observations from a re-analysis of the deposited data

Results flagged for a closer look

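Cdc20 was singled out because its libraries of dissection 3 stood on opposite sides of the others in mandible and tibia. In the mandible it was at 6.68 RPKM in dissection 3, above 4.37 and 5.19 in dissections 1 and 2, and in the tibia at 4.32, below 4.56 and 4.49. The difference of the dissection 3 effect, mandible minus tibia, was 0.51 on the log2 scale and did not pass an interaction test with limma over all genes (adjusted p = 0.483), a test chosen after seeing the data. None of the 35 genes passed that test, against 70 of 12752 genes. An unadjusted p under 0.05 was reached by 2 of the 35 and by 1533 of all genes.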

How the results depend on the processing

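Between sites, limma called 0 of the 35 genes and 124 of all genes, and leaving out single libraries gave 0 for the 35 and 37 to 151 for all. With the replicate block the counts were 1 and 828, with the block and quantile normalization 4 and 784, and with the block and a length and GC correction 4 and 830. Without both libraries of dissection 3 they were 1 and 714, or 3 and 1162 with the block. The 828 calls split into 566 higher and 262 lower, and the 784 under quantile normalization into 360 and 424, so the split between directions depends on the scaling. By dissection, 18 of the 35 and 4392 of all genes were called. Without the filter these were 9 and 2126, without both libraries of dissection 3 they were 0 and 8, and leaving out single libraries gave 11 to 15 and 2557 to 4015, lowest without tibia library 2. The 4392 calls split into 2742 higher and 1650 lower in dissection 3, and into 2200 and 1947 with quantile normalization. No called gene of the 35 changed direction, and the cause of the moves was not tested.

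Directions that changed belong to values that did not pass. By site they were Ccnd2 -0.14, Cdkn1a -0.0519, Mcm2 -0.0244, Mcm4 -0.0941 and Pcna -0.0824 with quantile normalization, also with the block, Ccnd2 -0.13, Cdkn1a -0.0102, Mcm2 -0.019, Mcm4 -0.0915 and Pcna -0.0744 with median-of-ratios scaling and Bub1 0.025 with the top transcript. They were Cdkn1a -0.0143, Cdkn2c 0.0698, Mcm2 -0.0175 and Rrm1 0.0623 without dissection 3 and Ccnd2 -0.0821, Cdkn1a -0.0381, Mcm2 -0.0401, Mcm4 -0.0724 and Pcna -0.0664 with the length and GC correction, both also with the block. By dissection they were Cdk4 -0.36 with quantile normalization, Cdk4 -0.0219 with median-of-ratios scaling, Cdk2 0.13 with the top transcript and Ccnd3 0.066, Mcm2 0.0729, Ccnb2 -0.18 and Plk1 0.0281 with the length and GC correction. As single libraries were left out, the site differences of genes that changed direction ran over Aurka -0.56 to 0.18, Aurkb -0.29 to 0.0751, Birc5 -1.01 to 0.0727, Ccna2 -0.61 to 0.36, Ccnd2 -0.13 to 0.19, Ccnd3 -0.15 to 0.0296, Ccne1 -0.0584 to 0.58, Cdk1 -0.51 to 0.24, Cdkn1a -0.0324 to 0.23, Cdkn2c -0.56 to 0.41, Mcm2 -0.0262 to 0.20, Mcm3 -0.29 to 0.17, Mcm4 -0.0558 to 0.14, Mcm5 -0.45 to 0.0539, Mcm6 -0.20 to 0.14, Mcm7 -0.46 to 0.094, Pcna -0.15 to 0.32, Rb1 -0.34 to 0.12, Rrm1 -0.26 to 0.24, Top2a -0.51 to 0.0209 and Tyms -0.41 to 0.24. These site fits had no block, so leaving out 1 library left its partner of the same dissection unpaired. The site difference then also held part of the difference between dissections. The dissection differences of genes that changed direction ran over Ccnb2 -0.10 to 0.70, Cdc20 -0.0612 to 0.45 and Cdk2 -0.30 to 0.0696. The fits without dissection 3 under the block and those with the length and GC correction were chosen after seeing the data.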
